A study of Luffa aegyptiaca with 4 samples.

Results

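LOX12 and LOX14 are the lipoxygenase transcripts that stood highest in unstressed Luffa aegyptiaca, the sponge gourd, in an RNA-seq comparison of heat stress with control. The study's table holds 48619 transcripts, of which 29 are named as lipoxygenases (LOX1 to LOX29). The 2 described here, Laeg_LOX12.t01 and Laeg_LOX14.t01, were chosen as the lipoxygenases with the highest mean level over the control samples. Their control levels are therefore given as a description and support nothing by themselves. The samples were 2 controls and 2 heat-stressed samples, numbered as biological replicates 1 and 2 of each group. The labels give the source only as tissue. They name no cultivar, plant age, organ, temperature or length of treatment, and no defining marker of a tissue could be checked, because rows other than the lipoxygenases carry a number in place of a gene name.

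Lipoxygenases are iron-containing dioxygenases that add molecular oxygen to linoleic and linolenic acid. In plants they are grouped as 9-lipoxygenases and 13-lipoxygenases by the carbon they oxygenate. The 13-lipoxygenases that act in plastids supply the precursor of jasmonic acid, a hormone of wounding and defence, and of the volatile aldehydes of green leaves. The 9-lipoxygenases give rise to other oxylipins, and in cucurbits lipoxygenase activity is well known from cucumber fruit and seedlings, where it contributes to aroma and to the breakdown of stored lipid. Which of these types LOX12 and LOX14 belong to, their domains and their position in the genome were not analysed here, and no sequence of either was used.

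Levels are given in FPKM, mapped fragments scaled to transcript length and to the size of the library, so they can be set side by side between genes. The LOX12 level was 92.5 FPKM in control replicate 1 and 93.6 FPKM in control replicate 2, against 13.0 FPKM in heat replicate 1 and 14.6 FPKM in heat replicate 2. For LOX14 the corresponding levels were 61.5 and 74.6 FPKM without heat, against 8.14 and 6.06 FPKM with it. For both genes each heat sample lay far below each control sample, and the groups did not overlap. Of the 18186 transcripts tested (those averaging 1 FPKM or more over the 4 samples), 49.6% likewise had both heat samples below both controls, so the absence of overlap alone does not set the 2 lipoxygenases apart. In bulk tissue, fewer cells that carry a transcript and less of it per cell cannot be told apart.

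**Figure D1:**
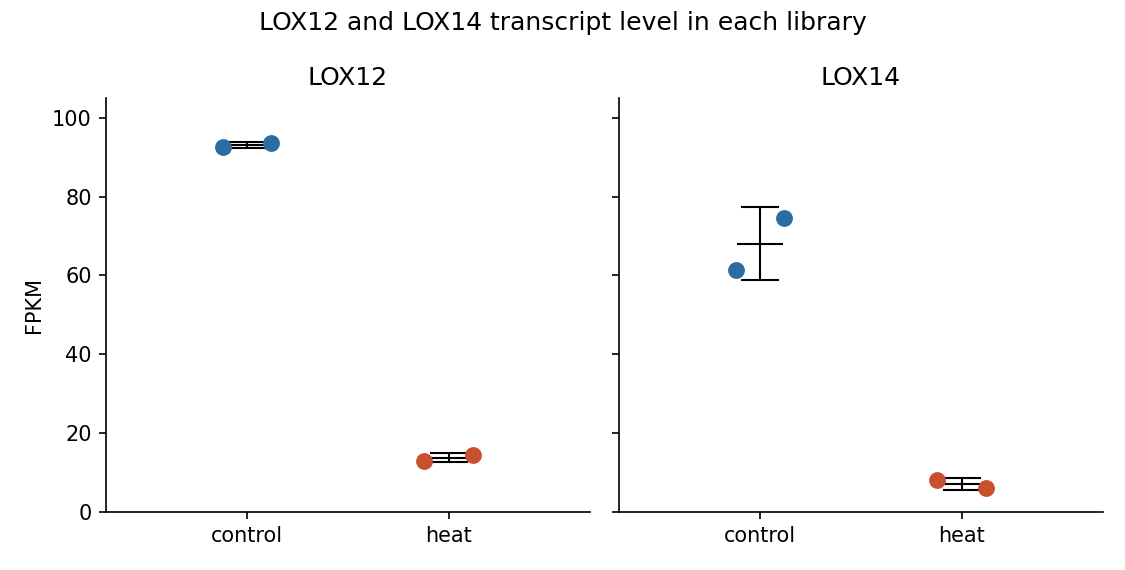
Level of LOX12 (left) and LOX14 (right) in FPKM on a linear axis from 0, 1 point per library, with horizontal bars for the group mean and error bars for the SD of 2 libraries. The control points of LOX12 lie almost on each other at 92.5 and 93.6 FPKM while those of LOX14 are apart at 61.5 and 74.6 FPKM, and all heat points lie at or below 14.6 FPKM.

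LOX12 and LOX14 transcripts fell under heat against either control sample taken alone. The genes were chosen by the mean of both controls, so no control sample is wholly independent of the choice. Ranking the lipoxygenases in control 1 alone or in control 2 alone gave the same 2 genes. Both controls fed the choice, so the falls are a description and carry no test. With control 2 compared with both heat samples, LOX12 fell by 2.68 on the log2(FPKM + 1) scale and LOX14 by 3.24. With control 1 in its place, the log2 changes were -2.66 for LOX12 and -2.96 for LOX14. Each of these comparisons holds 1 control sample.

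The size of each fall was set against the changes of the other tested transcripts. Over all 4 samples the log2 change was -2.67 for LOX12, with a standard error of 0.11, and -3.10 for LOX14, with a standard error of 0.17. These values include the control levels that chose the genes and carry no test. The median change of all tested transcripts was -0.20, so relative to it LOX12 stood at -2.47 and LOX14 at -2.90. A fall at least as large as that of LOX12 was seen in 908 other tested transcripts (4.99%), and one as large as that of LOX14 in 543 (2.99%). Transcripts with a low control level cannot fall that far on the log2(FPKM + 1) scale, and both shares are taken with those included. Choosing transcripts by a high control level favours falls: among the 2039 transcripts with a control mean of at least 50 FPKM the median change was -0.91, against 0.79 among the 2093 with a heat mean of at least 50 FPKM and 0.01 among the 2163 whose mean over all 4 samples reached it. Of the 2039 chosen on control, as LOX12 and LOX14 were, 16.3% had a fall as large as that of LOX12 and 11.6% one as large as that of LOX14.

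**Figure D2:**
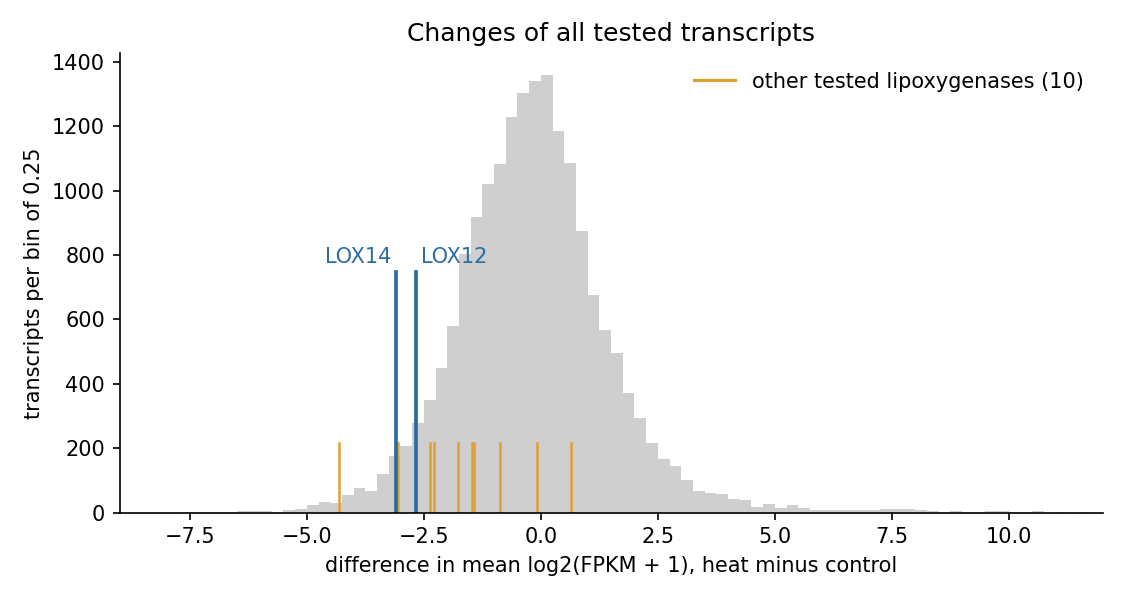
Number of transcripts (vertical axis, bins of 0.25) at each change from control to heat (horizontal axis, mean log2(FPKM + 1) under heat minus that in control), for the 18186 tested transcripts, with tall lines for LOX12 and LOX14 and short lines for the other 10 tested lipoxygenases. LOX12 at -2.67 and LOX14 at -3.10 lie in the left tail of the distribution, whose median is -0.20.

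As ratios of group means, LOX12 went from 93.1 ± 0.823 to 13.8 ± 1.08 FPKM, a 6.75-fold difference, and LOX14 from 68.1 ± 9.29 to 7.10 ± 1.47 FPKM, a 9.59-fold difference (SD, n = 2 per group). Taking each control with each heat sample, the ratio of control to heat lay between 6.35 and 7.18 for LOX12 and between 7.55 and 12.3 for LOX14. Every one of the 4 ratios was therefore higher for LOX14, although the 4 share samples and are not independent. After rescaling the libraries by the median of ratios the folds were 5.69 and 8.06, with the same order.

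The falls of LOX14 and LOX12 were set side by side through the ratio between them within each library. Scaling a library by 1 factor does not change this ratio. LOX12 was 1.50 times as high as LOX14 in control replicate 1 and 1.25 times in control replicate 2, against 1.60 times in heat replicate 1 and 2.40 times in heat replicate 2. Both heat ratios were above both control ratios, but control replicate 1 and heat replicate 1 were close together. The log2 ratio was 0.46 ± 0.18 in control and 0.97 ± 0.41 under heat (SD, n = 2 per group), a difference of 0.51. This difference is a description: it holds the control values that chose the genes, and an exact two-sided permutation test of 2 samples against 2 cannot go below p = 0.333. Without heat replicate 2 the difference was 0.22 and without heat replicate 1 it was 0.81, so its size rests on which heat sample is used.

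The distance between replicates was larger for LOX14 than for LOX12 in both groups. Each distance is 1 difference between 2 samples, so it does not establish that the genes differ in spread. The tested transcripts used for comparison are of all levels from a mean of 1 FPKM, not only of levels like these. The control replicates of LOX12 were 0.02 apart on the log2(FPKM + 1) scale, less than in most transcripts (9.87% of those tested were closer). Those of LOX14 were 0.28 apart, more than in 81.8% of tested transcripts and against a median of 0.12. Between the heat replicates the distance was 0.15 for LOX12 and 0.37 for LOX14, against a median of 0.21. In the controls both genes were higher in replicate 2. Under heat LOX12 was higher in replicate 2 and LOX14 in replicate 1.

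Within the family, LOX12 and LOX14 ranked first and second in each control sample. The next genes, outside the choice, were LOX15 at 21.9 and 16.1 FPKM and LOX2 at 12.5 and 14.4 FPKM in control replicates 1 and 2. The lowest control value of LOX14, 61.5 FPKM, was thus well above the highest of LOX15. Under heat the order was different. LOX27, at 16.7 and 18.3 FPKM in heat replicates 1 and 2, stood above LOX12 in both. LOX12 ranked second in both heat samples, and its lowest value of 13.0 FPKM was above the highest of LOX14 and LOX2.

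LOX14 could not be placed apart from LOX2 under heat. LOX14 had 8.14 and 6.06 FPKM and LOX2 had 6.06 and 7.68 FPKM, so that LOX14 ranked above LOX2 in heat replicate 1 and below it in heat replicate 2. In the controls LOX14 had been above LOX2 by a wide margin. The next gene, LOX1, stood at 3.24 and 3.36 FPKM under heat, below both. LOX12 and LOX14 are the highest lipoxygenases of the control samples by the way they were chosen, and under heat LOX27 had the highest level.

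**Figure D3:**
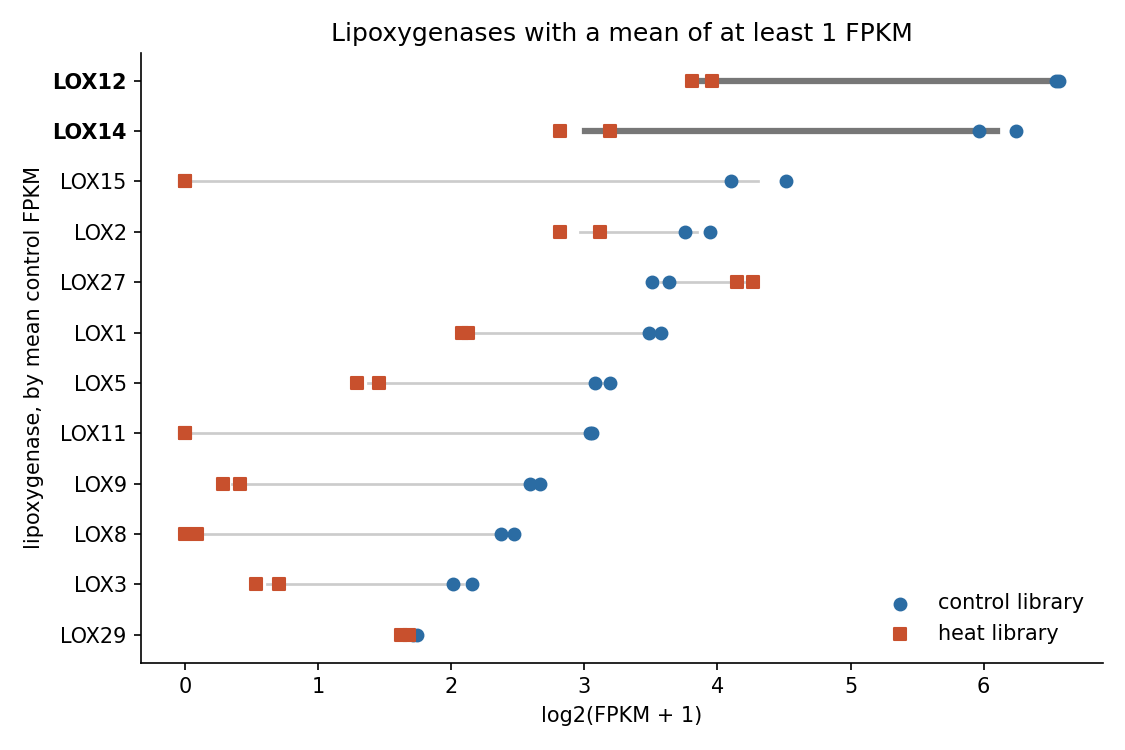
Level of the 12 tested lipoxygenases, as log2(FPKM + 1) on the horizontal axis, with circles for control libraries, squares for heat libraries and a line between the group means; genes are ordered by mean control FPKM. The heat values of LOX12 (13.0 and 14.6 FPKM) lie below those of LOX27 (16.7 and 18.3 FPKM), and those of LOX14 and LOX2 overlap.

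LOX12 and LOX14 made up most of the lipoxygenase FPKM in control and a smaller part under heat. LOX12 alone held 38.5% and 37.1% of the family's summed FPKM in the first and the second control, against 25.1% and 26.5% in the heat samples. LOX14 held 25.6% and 29.5% without heat, against 15.6% and 11.0% with it. Both shares were lower in each heat sample than in each control. The choice by control level favours high control shares, so this is a description. LOX27 had shares of 4.32% and 4.53% without heat, against 32.2% and 33.2% with it.

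The sum of LOX12 and LOX14 went from 161.1 ± 10.1 to 20.9 ± 0.394 FPKM, a 7.71-fold difference (SD, n = 2 per group). The sum of the other 27 lipoxygenases went from 85.5 ± 1.46 to 32.6 ± 2.45 FPKM, a 2.62-fold difference. Much of that heat level was LOX27, and the sum of the 26 without it was 76.1 and 73.0 FPKM in the control samples against 14.1 and 16.1 FPKM in the heat samples, a 4.94-fold difference of the means. Of the difference of 193.1 FPKM in the whole family, LOX12 accounted for 41.0% and LOX14 for 31.6%. These parts follow in some measure from the choice of the highest control levels, and are a description. Members of this family can be near-identical in sequence, and no source used here says how reads matching several of them were counted, so the division of reads between LOX12, LOX14 and other members is uncertain.

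**Figure D4:**
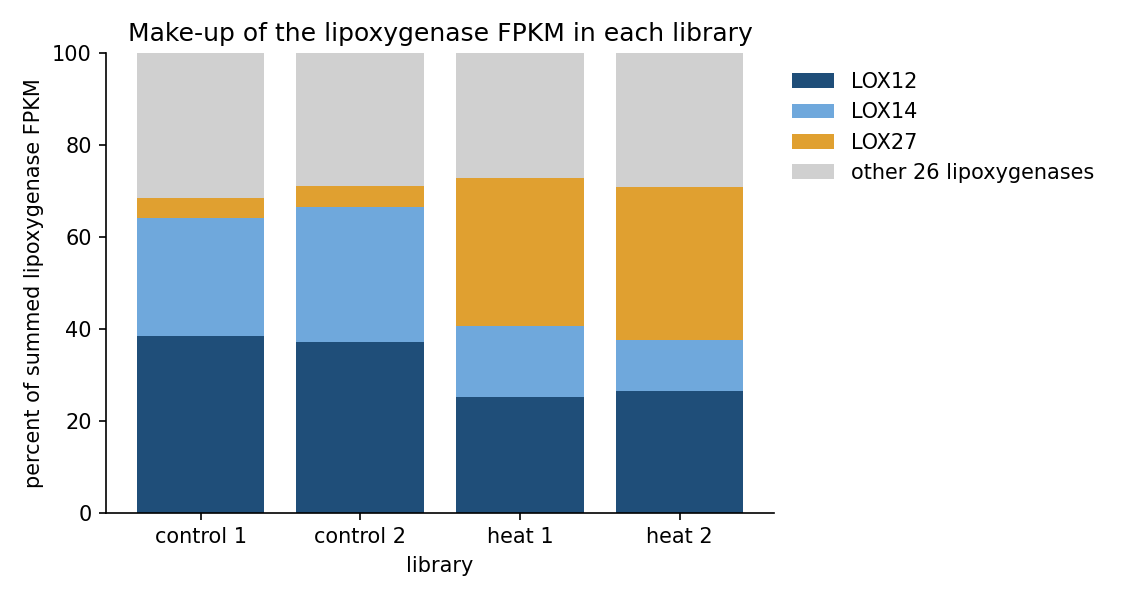
Percent of the summed lipoxygenase FPKM (vertical axis) held by LOX12, LOX14, LOX27 and the other 26 lipoxygenases in each library (horizontal axis). LOX12 and LOX14 together fill 64.0% and 66.6% of the control bars and 40.7% and 37.5% of the heat bars, where LOX27 takes 32.2% and 33.2%.

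Among the other 27 lipoxygenases, 10 were abundant enough to be tested. The fits used for them hold 1 control sample and made more false calls on simulated data than the nominal rate. Their calls and adjusted p-values are therefore a description and do not establish a change. Against control 2 alone, 8 fell, while LOX27 (log2 change 0.57, limma adjusted p = 0.0680) and LOX29 (-0.09, adjusted p = 0.722) did not pass the threshold of 0.05. Against control 1 alone, 7 fell, LOX27 rose by 0.70 (limma, adjusted p = 0.0446), and LOX2 (-0.78, adjusted p = 0.0666) and LOX29 (-0.06, adjusted p = 0.806) did not pass. Of all tested transcripts, 32.3% and 32.5% were called lower and 22.8% and 22.2% higher in these fits. This excess of lower calls depended on the scaling: after rescaling by the median of ratios, 4985 and 4905 transcripts were lower and 4842 higher in either fit. A total of 5 of the 10 (LOX3, LOX8, LOX9, LOX11 and LOX15) averaged under 1 FPKM under heat and passed the filter through their control level. The filter thus fixed the direction of their change, though not its size, and the count of falls is not read as support. As ratios of FPKM, falls larger than those of LOX12 and LOX14 also occurred in the family, in genes at or near 0 under heat. On the log2(FPKM + 1) scale, LOX15 fell further than both and LOX11 (-3.05) further than LOX12 only. LOX8 (-2.38) fell less than either. The mean level of LOX9 was 5.19 ± 0.244 FPKM in control and 0.276 ± 0.0788 FPKM under heat (SD, n = 2 each). The ratio of these means was 18.8, which the log2(FPKM + 1) scale compresses to a change of -2.28. LOX8 had a control mean of 4.36 FPKM and was listed at 0 in heat replicate 1, with 0.0640 FPKM in heat replicate 2. LOX11 and LOX15 were listed at 0 in both heat samples, from control means of 7.29 and 19.0 FPKM.

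In the whole transcriptome, LOX12 went from among the most abundant transcripts to a middle level. It ranked 937th and 932nd of all rows in control replicates 1 and 2, within the top 4.15% and 4.09% of the rows above 0. Under heat it ranked 6913th and 6604th, at 29.3% and 27.4% of the rows above 0. LOX14 ranked 1563rd and 1225th in the controls, within the top 6.93% and 5.37%, but 9016th and 10546th under heat, at 38.3% and 43.8%. Both genes thus remained well above the low end of the detected range under heat. The control and heat libraries differed broadly, with Pearson's r across tested transcripts between 0.578 and 0.603 when a control library was set against a heat library, compared with 0.987 between the controls and 0.976 between the heat samples. The labels give no batch or date, and a tissue or stage that differed between the groups cannot be told apart from the treatment.

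The transcripts most like LOX12 and LOX14 over the 4 samples were sought by the Euclidean distance of log2(FPKM + 1). Luffa_aegyptiaca00649.t01 was nearest to LOX12, at a distance of 0.18. Its levels were 87.4 and 101.7 FPKM without heat, against 13.2 and 15.8 FPKM with it. Luffa_aegyptiaca36950.t01 was nearest to LOX14, at a distance of 0.25, with levels of 54.0 and 69.5 FPKM without heat, against 8.84 and 5.65 FPKM with it. The table gives no name for either. Within a distance of 0.5 there were 29 transcripts around LOX12 and 25 around LOX14. The distance between LOX12 and LOX14 themselves was 1.46, and 378 and 388 transcripts, respectively, were nearer to LOX12 and to LOX14 than they were to each other. Each was nonetheless the other's nearest lipoxygenase.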

How the data were processed

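Total RNA of 4 samples was treated with DNase, made into cDNA libraries and sequenced on an Illumina instrument, per the labels' protocols. The authors deposited FPKM values, 1 column per sample. Tools named in the submitters' processing notes are fastp (0.20.1), HISAT2 (2.2.1) and StringTie (2.0). As for the reference, its build was not given in the sources used here, nor was the annotation. All 48619 rows were read; 21129 were at 0 in every library. No common step of low values was found (at most 0.791% of rows under 0.3 FPKM shared a ratio between 2 libraries), so depth is unknown and no counting intervals are given.

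The limma package (version 3.58.1, under R 4.3.3) was run on log2(FPKM + 1) with a mean-variance trend, for the 18186 rows averaging 1 FPKM or more; this scale understates changes of low transcripts. These rows are called tested in the text. The fits with 1 control sample made more false calls on simulated data than the nominal rate. Adjusted p-values and calls from them are given for other transcripts, as a description only. For LOX12 and LOX14 only changes are given from these fits. Fits over all 4 samples hold the control values that chose LOX12 and LOX14, so no p-value is given from them either. Their standard errors come from the spread between these samples, drawn towards that of tested rows with a like mean level. Whether replicates are separate plants is not stated in the labels. LOX12 and LOX14 and the lists were chosen with earlier results of these data known. The rule for named genes took besides them their neighbours in the order of levels and the numbered row nearest to each. LOX1, LOX3, LOX8, LOX9, LOX11 and LOX29 fall outside it and were named after their values were seen. Lists of jasmonate, heat response and tissue marker genes could not be matched to any row and were not tested.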

Additional observations from a re-analysis of the deposited data

How the results depend on the processing

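The falls of LOX12 and LOX14 kept their direction under each of the alternatives run. Against either control sample alone, the changes ran from -2.76 to -2.40 for LOX12 and from -3.39 to -2.71 for LOX14. Over all 4 samples, the change of LOX12 was -2.75 with a pseudocount of 0.1. After rescaling by the median of ratios it was -2.43, and that of LOX14 -2.87; the median of all tested transcripts then moved from -0.20 to 0.01. Leaving out 1 sample at a time gave changes from -2.74 to -2.60 for LOX12 and from -3.28 to -2.91 for LOX14. Equal summed FPKM, a scale added after seeing the data, gave -2.70 and -3.13. With a replicate block the changes were -2.67 and -3.10. The deviations of same-numbered samples had a correlation of -0.07 across transcripts, so same-numbered samples were not treated as pairs; a block could not be fitted with 1 control sample. With no filter on low values, the transcripts called lower numbered 3419 and 3551 (against 5868 and 5904) and those called higher 1924 and 2003 (against 4140 and 4038) without control 1 and control 2, respectively; the cause was not tested. The log2 ratio of LOX12 to LOX14, heat minus control, ran from 0.22 to 0.81 when 1 sample was left out. The rank of LOX12 among all transcripts by its control mean, 938, was 932 to 937 in single controls. The rank of LOX14 among lipoxygenases was 3 by its heat mean and 3 or 4 in single heat samples. By the largest absolute difference the transcript nearest to LOX14 was another one, at 0.18; the cause was not tested. Leaving out a heat sample from a fit with 1 control leaves no replicates, so that was not run. Depth is unknown, so its part in the spread of LOX12 and LOX14 cannot be stated.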
